A study of Homo sapiens with 12 samples.

Results

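The transcripts described here encode the subunits of the transcription factor NF-κB, their inhibitors and the deubiquitinating enzyme A20. The 10 genes are REL, RELA, RELB, NFKB1 and NFKB2 (the subunits), NFKBIA and NFKBIE (inhibitors that hold NF-κB in the cytoplasm), NFKBIZ and BCL3 (nuclear members of the inhibitor family) and TNFAIP3 (A20). They were chosen by name, as every probe set of the array that the platform annotation gives to these symbols, which yielded 21 of the 54675 probe sets. On the whole array 19775 genes have a probe set that names them alone, among them 9 of the 10. All 10 genes had a tested probe set, and 19 of the 21 probe sets were bright enough to test. A dim probe set each of NFKBIA (231699_at) and NFKB2 (211524_at) was left out. Both probe sets of BCL3 are annotated to BCL3 and to MIR8085, a microRNA gene that lies within BCL3, so their signal is written below as BCL3/MIR8085.

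SW13 is a human adrenal cortical carcinoma line that lacks BRG1 protein, the ATPase of the SWI/SNF chromatin remodeling complex encoded by SMARCA4. The study compared a stable line with the empty vector pREP7 (SW13+vector) and a stable line with pREP7 that carries BRG1 isoform C (SW13+BRG1), with and without UV (10 J/m2, or a mock treatment, and harvest 6 h later), to ask which transcripts depend on BRG1 and on UV. The 12 Affymetrix U133 Plus 2.0 arrays fall into 4 groups of 3, described as independent biological samples. A single line of each kind was used, so tests between lines measure the spread within a line, and BRG1 and any other difference between the lines cannot be told apart.

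Array medians lay between 21.1 and 25.3 signal units, and log2 signals correlated at 0.894 to 0.949 between arrays of a group and 0.763 to 0.915 between groups. The transcript of SMARCA4 did not separate the lines the way the labels would. Of its 9 probe sets 7 were tested, and in mock-treated cells none was called higher in SW13+BRG1 by limma, while 215714_s_at was lower (539 ± 332 with the vector and 213 ± 107 with BRG1, mean ± SD, n = 3). At an unadjusted p under 0.05 there were 2, both lower. After UV 3 were at an unadjusted p under 0.05. Of these 212520_s_at was called higher with BRG1 (34.4 ± 16.8 against 148 ± 47.7), while 208793_x_at and 215714_s_at were on the lower side with log2 fold changes of -0.78 (adjusted p = 0.0313, under 2-fold) and -1.22 (adjusted p = 0.0511). The study checked BRG1 protein by Western blot, and every direction below for SW13+BRG1 is that of the arrays so labelled. Of 10 adrenal cortex markers 8 had a probe set that names them alone, and 3 were tested. Signals summed over the 8 were 1240 to 1700 and 1540 to 1690 in mock- and UV-treated SW13+vector cells. In SW13+BRG1 cells they were 838 to 959 and 802 to 938. Most of each sum was FDX1, with means of 1431 ± 222 and 1494 ± 53.2 against 802 ± 41.4 and 761 ± 74.0. The other tested markers were not lower with BRG1, with MC2R at 25.6 and 28.2 against 32.5 and 38.3. CYP17A1 was at 6.73 and 6.19 against 26.6 and 6.52. The defining genes NR5A1, STAR and CYP11A1 were too dim to test. Of 12 blood cell markers 10 had such a probe set, and 6 were tested. Signals summed over the 10 were 284 to 311 and 278 to 391 against 148 to 185 and 174 to 196. PTPRC (CD45), a marker of white blood cells, had means of 123 ± 41.4 and 118 ± 35.8 in the vector line. In the BRG1 line they were 7.07 ± 1.31 and 6.77 ± 5.85. CD79A was lower with BRG1 mainly after UV, at 49.3 and 48.6 against 42.3 and 10.96. The other tested blood cell markers did not keep their direction between mock and UV. HBB was at 37.4 and 53.3 against 34.8 and 56.5, and CSF1R at 12.4 and 28.4 against 25.7 and 21.1. CD3D was at 21.7 and 16.7 against 18.1 and 23.2, and ITGAM at 22.8 and 12.1 against 17.4 and 25.01. CD14 and SPI1 were too dim to test. The part of these marker levels in the differences between the lines was not tested. In bulk RNA, fewer cells of a type and less RNA per cell cannot be told apart.

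NF-κB is a dimer of REL family proteins. In resting cells IκBα (NFKBIA) and IκBε (NFKBIE) keep dimers of RELA, REL and p50 in the cytoplasm until the IκB kinase marks the inhibitors for degradation, while a second route processes the NFKB2 precursor to p52, the partner of RELB. IκBζ (NFKBIZ) and BCL3 act instead in the nucleus, where they bind p50 or p52 homodimers and can raise or lower transcription of selected targets. A20 (TNFAIP3) ends signaling by editing ubiquitin chains upstream of the kinase, and NFKBIA, TNFAIP3 and several subunit genes are themselves known targets of NF-κB. UV light is a known activator of NF-κB.

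The regions in front of these genes are shown because several of the genes are known to be under the control of the factor that they encode or restrain. The sequences are from RefSeq (GRCh38.p14), written 5′ to 3′ along the gene, in lower case with matches to the κB consensus on either strand in capitals. A window of 250 bases before to 50 after each annotated start was searched. NFKBIZ has 2 such starts, NFKB1 has 2 and NFKB2 has 3, and NFKBIE and RELB had no entry. Of the 8 genes with an entry 7 held a match, in 9 of their 13 windows, against 2075 of all 35116 windows (5.91%). RELA held none in either window. The whole stretch before the start is given for REL, TNFAIP3 and the first start of NFKBIZ, whose probe sets carry the differences described below, and the match with its flanks for the others.
NFKBIZ first start, chr3:101827740-101827989, plus strand: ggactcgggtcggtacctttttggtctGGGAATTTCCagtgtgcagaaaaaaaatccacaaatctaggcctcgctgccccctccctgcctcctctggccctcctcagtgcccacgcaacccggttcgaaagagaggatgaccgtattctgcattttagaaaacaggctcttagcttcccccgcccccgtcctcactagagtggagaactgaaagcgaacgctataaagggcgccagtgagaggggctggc
NFKBIZ second start, chr3:101849264-101849309, plus strand: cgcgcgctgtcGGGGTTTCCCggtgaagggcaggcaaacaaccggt
REL, chr2:60881324-60881573, plus strand: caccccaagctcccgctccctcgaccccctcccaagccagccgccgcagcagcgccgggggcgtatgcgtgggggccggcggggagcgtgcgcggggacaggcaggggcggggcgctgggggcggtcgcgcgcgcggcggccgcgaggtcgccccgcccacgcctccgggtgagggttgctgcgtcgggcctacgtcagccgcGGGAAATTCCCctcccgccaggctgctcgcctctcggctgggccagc
NFKB1, chr4:102501285-102501344, plus strand: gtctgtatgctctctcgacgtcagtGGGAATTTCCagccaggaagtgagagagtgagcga
NFKB2 first start shown, chr10:102394446-102394534, plus strand: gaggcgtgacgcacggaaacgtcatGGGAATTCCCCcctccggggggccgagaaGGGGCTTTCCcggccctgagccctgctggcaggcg
NFKB2 second start shown, chr10:102395504-102395704, plus strand: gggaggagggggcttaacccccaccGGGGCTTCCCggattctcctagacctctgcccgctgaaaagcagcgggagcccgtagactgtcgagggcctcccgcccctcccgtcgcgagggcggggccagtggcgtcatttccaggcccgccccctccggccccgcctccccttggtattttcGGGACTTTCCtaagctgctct
NFKBIA, chr14:35404796-35404855, minus strand: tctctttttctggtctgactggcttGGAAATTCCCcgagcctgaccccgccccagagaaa
TNFAIP3, chr6:137867009-137867258, plus strand: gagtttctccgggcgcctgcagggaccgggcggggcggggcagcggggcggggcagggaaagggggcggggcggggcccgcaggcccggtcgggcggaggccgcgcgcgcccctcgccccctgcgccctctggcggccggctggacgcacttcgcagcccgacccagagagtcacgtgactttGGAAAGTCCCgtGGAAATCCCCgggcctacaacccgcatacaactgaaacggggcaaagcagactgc
BCL3, chr19:44748700-44748729, plus strand: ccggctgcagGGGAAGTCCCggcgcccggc

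The match of NFKBIZ began 223 bases before its first start and 239 bases before its second. In REL it began 47 bases before the start, where matches on the opposite strands overlap. NFKB1 held its match at 49 bases, NFKBIA at 81, and TNFAIP3 held 2 matches at 67 and 55 bases. In NFKB2 overlapping matches lay at 107 and 106 bases and another at 78 bases before the first start shown, with matches at 176 and 21 bases before the second, and the window of its remaining start held none. The match of BCL3 lay 2 bases past the start. A match is a run of letters and not evidence of binding, and no binding was measured here.

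Without UV, both probe sets of NFKBIZ were lower in SW13+BRG1 cells than with the vector, 223218_s_at by 4.24-fold and 223217_s_at by 2.82-fold. After UV 223218_s_at rose 2.76-fold in SW13+BRG1 cells, and 223217_s_at was at 1.91-fold of its mock level there, which was not called (adjusted p = 0.185). REL fell after UV, by 3 of its 5 probe sets in SW13+BRG1 cells and by 1 in SW13+vector cells (by 2 there with the experiment number of the arrays as a block). By 202644_s_at, TNFAIP3 was higher in SW13+BRG1 cells after UV, and by 204908_s_at the signal of BCL3/MIR8085 was higher in SW13+BRG1 cells without UV. A probe set was called when its adjusted p, from limma with Benjamini-Hochberg adjustment over all 32622 tested probe sets, was under 0.05 and its fold change over 2. A fold change is taken between means of log2 signals. The comparisons share arrays (each mock group serves in a comparison between the lines and in one with UV), so they are given side by side and are not independent.

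Without UV, 3 of the 19 tested probe sets were higher and 2 lower with BRG1 than with the vector (26.3%), beside 7.69% higher and 4.3% lower of all tested probe sets. Of the 3 higher ones 2 (204907_s_at and 202643_s_at) were below the array median on all 6 SW13+vector arrays. They passed the filter on dim signals only through SW13+BRG1 arrays, so the filter favoured higher calls with BRG1. Without them 1 higher probe set remains. Nothing is read from this share. With each of the other scalings of the arrays these were 2 and 2. After UV, 2 were higher and 1 lower with BRG1 (15.8%), beside 7.68% higher and 5.97% lower of all, and 1 of the 2 higher ones was again 202643_s_at. In SW13+vector cells UV left 1 of the 19 lower and 0 higher (5.26%, beside 0.665% higher and 3.6% lower of all), with 7 of the 19 at an unadjusted p under 0.05. Several of those 7 are REL probe sets. The share of all probe sets at that threshold was not taken, so nothing is read from the 7. With the experiment number as a block, which pairs the arrays of these groups, 3 were lower there (REL 206036_s_at and 228812_at and TNFAIP3 202644_s_at). In SW13+BRG1 cells 1 was higher and 3 lower after UV (21.1%), beside 0.561% higher and 5.81% lower of all. With arrays scaled to hybridization controls it was 1 higher and 6 lower. With that scaling 85 of all tested probe sets were higher and 4330 lower, in place of 183 and 1895. The interaction, which asks whether the UV effect is the same in both lines and was tested at an adjusted p under 0.05 alone, passed for 1 of the 19, beside 0.049% of all probe sets. The median log2 fold change of the 19 was 0.04 and 0.04 between the lines without and with UV, where the median of all was 0 and -0.06. After UV it was -0.41 in SW13+vector and -0.27 in SW13+BRG1 cells, where the median of all was -0.01 and -0.06. REL gives 5 of the 19 values. With 1 probe set per gene, for the 9 genes named alone, the medians were -0.14 and -0.1, where that of all genes was 0.03 in either line.

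**Figure D1:**
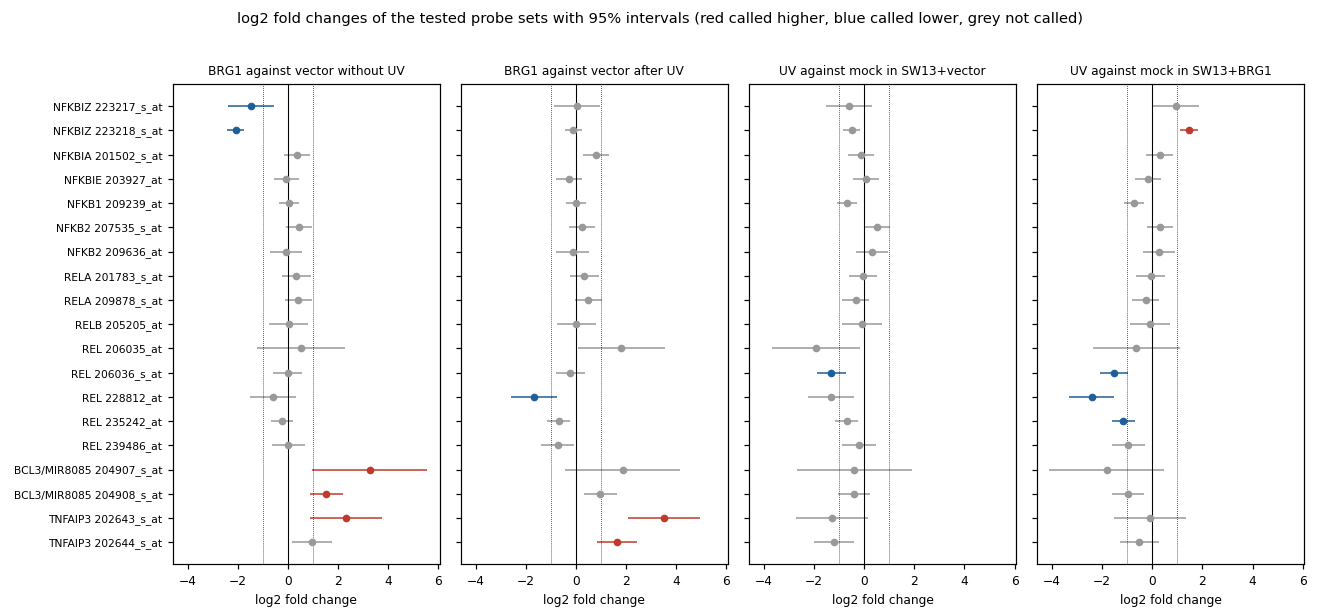
Log2 fold changes of the 19 tested probe sets in the 4 comparisons, with 95% intervals of the limma fit on the horizontal axis. Red marks probe sets called higher, blue those called lower and grey those not called, and dotted lines mark a fold change of 2. NFKBIZ 223218_s_at lies at -2.08 between the lines without UV and at 1.46 for UV in SW13+BRG1 cells, and 3 REL probe sets are blue in the rightmost panel. The red points of 202643_s_at and 204907_s_at are of probe sets below the array median on all SW13+vector arrays.

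Among the subunits, REL (c-Rel, an activating subunit best known from lymphocytes) was measured by 5 tested probe sets. The signal of 206036_s_at was 110, 90.0 and 105 on the 3 mock-treated SW13+vector arrays and 45.4, 44.8 and 32.7 after UV. In SW13+BRG1 cells it was 104, 125 and 76.7 without UV and 37.0, 38.3 and 29.1 after it. In both lines every UV-treated array was below every mock-treated one. On the log2 scale the probe set fell by 1.32 with the vector (adjusted p = 0.00805) and fell by 1.53 with BRG1 (adjusted p = 0.00204), each with a standard error of 0.27.

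The brightest REL probe set, 235242_at, was at 235, 230 and 329 without UV and at 156, 137 and 193 after UV in the vector line. The BRG1 line went from 232, 205 and 222 to 79.9, 116 and 103. Again no UV-treated array reached a mock-treated array of its line. Its log2 fold change was -0.71 (standard error 0.21, adjusted p = 0.0478) with the vector, which is under a 2-fold change and was not called, and it fell by 1.15 (adjusted p = 0.00246) with BRG1. With quantile normalization the latter was no longer called.

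For 228812_at the signals were 146, 152 and 178 before and 54.3, 68.5 and 66.5 after UV in SW13+vector cells. With BRG1 they were 114, 151 and 66.7 before and 26.3, 31.2 and 9.08 after UV. The groups did not overlap within either line. The UV effect in the BRG1 line was called (log2 fold change -2.42, standard error 0.42, adjusted p = 0.00208), and that in the vector line was not (-1.33, adjusted p = 0.0664), though it was with the experiment number as a block (adjusted p = 0.0203). After UV this probe set was 3.21-fold lower with BRG1 than with the vector (log2 fold change -1.68, limma adjusted p = 0.0103). All 3 SW13+BRG1 arrays were below all 3 SW13+vector arrays, though the signal of 9.08 was below its array median. The call was lost in 2 of 26 alternatives. No other REL probe set was called between the lines after UV. Of these, 235242_at was at a log2 fold change of -0.70 (limma adjusted p = 0.0248, under 2-fold) and 239486_at at -0.74. The groups overlapped for 206036_s_at (-0.23) and for the dim 206035_at, which went the other way (1.80).

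The other 2 REL probe sets were not called in any comparison. With 239486_at the vector line had means of 50.8 ± 8.15 and 44.5 ± 10.9, the BRG1 line had 51.5 ± 11.5 and 26.2 ± 1.73 (mock first in both), and the log2 fold change with UV in SW13+BRG1 cells was -0.96 (adjusted p = 0.0569). The dim 206035_at, at 1.77 to 27.7 over the 12 arrays, reached the array median on 3 of them. The UV-treated and mock-treated arrays did not overlap for 4 of the 5 probe sets in each line. In SW13+vector cells these included 206035_at, which was below the array median on all arrays of that line (1.77 to 16.1). The share of all tested probe sets that separate in this way was not taken, so nothing is read from this count. The interaction was below 0 for 4 of the 5, from -0.22 to -1.09, and 1.28 for 206035_at. None passed (adjusted p = 1.0 for each), and at an unadjusted p under 0.05 none did either, so a difference of the UV effect on REL between the lines was not detected with 3 arrays per group. The 95% interval for 235242_at ran from -1.08 to 0.18.

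**Figure D2:**
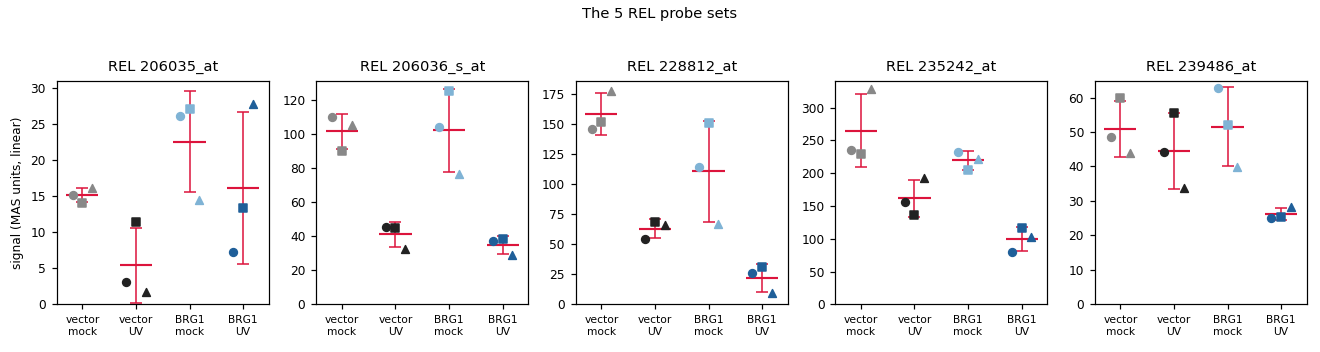
Signal (linear MAS units, axis from 0) of the 5 REL probe sets on each array of the 4 groups. Circles, squares and triangles are the arrays numbered 1, 2 and 3, and red bars give the mean and SD (n = 3). In 206036_s_at, 228812_at and 235242_at the UV-treated arrays lie below the mock-treated arrays of the same line.

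NFKB1, which encodes the precursor p105 and the p50 subunit, gave a signal of 213, 186 and 250 without UV and of 111, 133 and 159 after UV in the vector line. The BRG1 line gave 215, 211 and 234 before and 123, 128 and 147 after UV. The groups did not overlap in either line, but the change was under 2-fold and was not called. The log2 fold change was -0.69 (standard error 0.18, adjusted p = 0.0308) with the vector and -0.73 (adjusted p = 0.0166) with BRG1. With arrays scaled to hybridization controls, which lowered the median of all probe sets after UV by 0.26 and 0.39, these values were -0.95 and -1.12, and the latter was called (adjusted p = 0.00116). The lines differed by 0.04 without UV and by -0.01 after it on the log2 scale, with 95% intervals of -0.36 to 0.43 and -0.40 to 0.39.

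RELA (p65, the subunit with a strong activation domain) had a mean signal of 513 ± 144 without and 491 ± 111 with UV in the vector line (201783_s_at). The BRG1 line was at 647 ± 194 and 622 ± 197. In all 3 pairs of same-numbered arrays the signal was above that of the vector line, both without and with UV, by log2 fold changes of 0.33 and 0.32 (adjusted p = 0.458 and 0.442, and 0.0115 and 0.0127 with the experiment number as a block), under 2-fold and not called in either fit. Its log2 fold change with UV was -0.05 and -0.06 in the lines, with 95% intervals of -0.63 to 0.52 and -0.64 to 0.51. RELB, the partner of p52, was at 130.2 ± 59.8 and 122 ± 51.1 with the vector. With BRG1 the means were 128 ± 40.0 and 119 ± 32.6. Its log2 fold changes lay between -0.10 and 0.03 in the 4 comparisons, and a SD of up to 59.8 limits how small a change could be seen.

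NFKB2, the p100 precursor of p52, was at 129.8 ± 44.3 without and 178 ± 26.4 with UV in the vector line (207535_s_at) and at 167 ± 14.9 and 208 ± 19.3 in the BRG1 line. The log2 fold change with UV was 0.51 (adjusted p = 0.223) and 0.32 (adjusted p = 0.464), and the latter was -0.07 with arrays scaled to hybridization controls. The second probe set of RELA (209878_s_at) and that of NFKB2 (209636_at) were not called in any comparison, and the probe sets of NFKB2 correlated with each other at r = -0.10 over the 12 arrays.

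**Figure D3:**
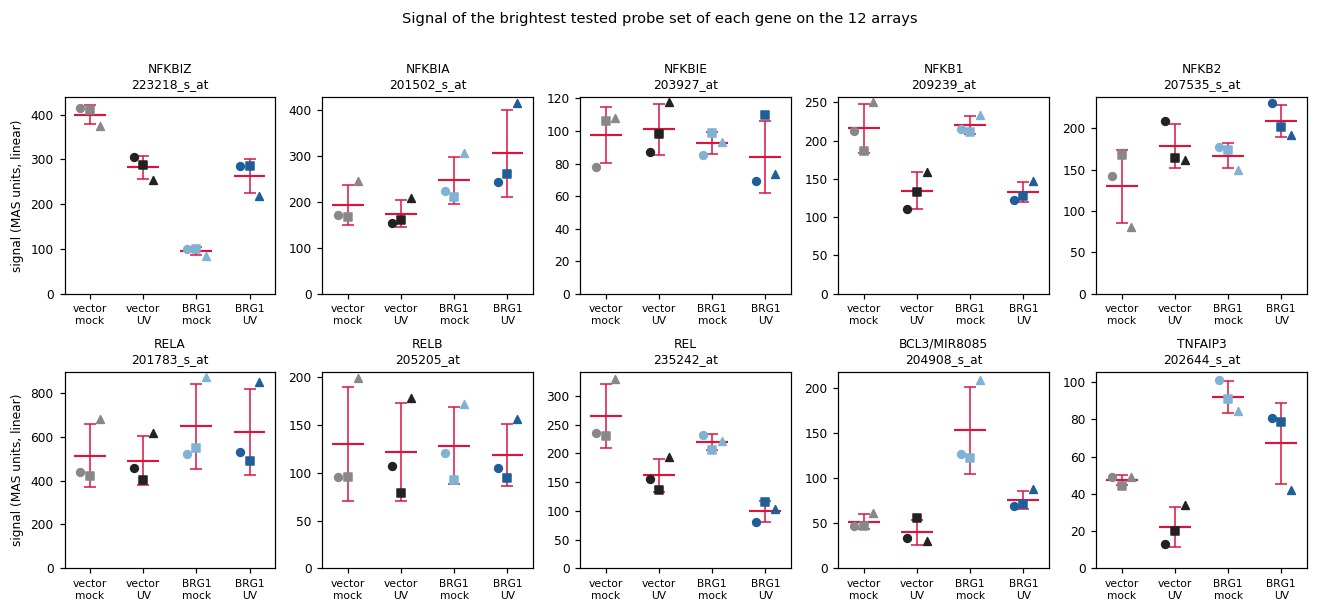
Signal (linear MAS units, each axis from 0) of the brightest tested probe set of each gene on the 12 arrays. Circles, squares and triangles are the arrays numbered 1, 2 and 3, and red bars give the mean and SD (n = 3) of each group. Triangles are the highest point of all 4 groups for NFKBIA, NFKB1, RELA and RELB and the lowest for NFKBIZ and NFKB2.

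The arrays carry experiment numbers, and those numbered 3 stood apart for several of these genes. This was not particular to them. Over all tested probe sets, deviations of the arrays numbered 3 from their group means correlated at 0.179 to 0.293 between groups. In 7 of the 19 probe sets the array numbered 3 was the extreme of its group in all 4 groups, as the highest for NFKBIA, NFKB1, RELA 201783_s_at and RELB, and as the lowest for both NFKBIZ probe sets and NFKB2 207535_s_at. The same share over all tested probe sets was not taken. Without the 4 arrays numbered 3, the lines differed in 2 higher and 2 lower probe sets without UV and 2 higher and 1 lower after UV. UV then left 3 probe sets lower in the vector line, with 4 lower and 1 higher in the BRG1 line, and the interaction passed for 1.

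Of the inhibitors that hold NF-κB in the cytoplasm, NFKBIA was at 171, 166 and 245 without and 155, 160 and 209 with UV in the vector line. In the BRG1 line the signals were 224, 211 and 306 without and 243, 261 and 415 with UV. After UV all SW13+BRG1 arrays were above all SW13+vector arrays. The log2 fold change there was 0.78 (standard error 0.24, adjusted p = 0.0317), under 2-fold and so not called. Without UV it was 0.36 (adjusted p = 0.365, and 0.0398 with the experiment number as a block), also under 2-fold. The change with UV within a line was -0.14 with the vector and 0.29 with BRG1 (adjusted p = 0.796 and 0.522), and the latter was -0.11 with arrays scaled to hybridization controls. NFKBIE had means between 84.1 ± 22.3 and 101 ± 15.7 in the 4 groups, and its log2 fold changes lay between -0.28 and 0.06.

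The nuclear inhibitor NFKBIZ (IκBζ, best known as an inducible cofactor of inflammatory genes) was measured by 2 probe sets. With 223218_s_at the vector line gave 415, 410 and 375 without UV and 306, 287 and 253 after UV. With BRG1 the signals were 98.9, 100 and 84.3 without UV and 284, 284 and 218 after UV. In order of the means, the groups ran from mock-treated SW13+vector (400.2 ± 21.9) over UV-treated SW13+vector (282 ± 26.5) and UV-treated SW13+BRG1 (262 ± 38.4) to mock-treated SW13+BRG1 cells (94.5 ± 8.91). The UV-treated groups of the lines overlapped, and the other neighbours in this order did not.

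Without UV, NFKBIZ was lower in SW13+BRG1 cells by a log2 fold change of -2.08 (standard error 0.16, adjusted p = 8.38e-07). After UV the difference between the lines was -0.11, with a 95% interval of -0.46 to 0.23 (adjusted p = 0.680). In the BRG1 line NFKBIZ rose with UV by a log2 fold change of 1.46 (standard error 0.16, adjusted p = 0.000103). In SW13+vector cells its change was -0.51, and the groups did not overlap there, yet the adjusted p of 0.0641 missed the threshold. With the experiment number as a block it was 0.00649, for a change under 2-fold. The interaction was 1.97 (standard error 0.23, 95% interval 1.49 to 2.46, adjusted p = 0.00438), so the UV effect differed between the lines by more than the spread between arrays. The call between the lines without UV was kept under all 27 alternatives run and that of the interaction under all 23, with adjusted p from 0.000207 to 0.0261 for the latter. Not all of these could lose a call. Leaving out the BCL3/MIR8085 probe sets left both values as they were, and dropping the fold threshold could not lose the first call. The rise with UV in SW13+BRG1 cells was lost in 1 of 27, the test named in the methods with Benjamini-Hochberg adjustment (adjusted p = 0.0696).

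The second NFKBIZ probe set, 223217_s_at, correlated with the first at r = 0.795 over the 12 arrays but varied more. Its signals were 245, 281 and 126 in mock-treated SW13+vector, 194, 147 and 85.1 in UV-treated SW13+vector, 66.8, 127 and 45.4 in mock-treated SW13+BRG1 and 189, 144 and 98.1 in UV-treated SW13+BRG1 cells. Neighbouring groups overlapped throughout. It was lower in SW13+BRG1 cells without UV (log2 fold change -1.495, standard error 0.43, adjusted p = 0.0232), a call lost in 7 of 26 alternatives, among them leaving out mock-treated SW13+vector array 1 or 2 or mock-treated SW13+BRG1 array 1 or 3. Its change with UV in SW13+BRG1 cells was 0.93 (adjusted p = 0.185) and its interaction 1.54 (standard error 0.60, adjusted p = 0.918), with the signs of the first probe set and no call.

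**Figure D4:**
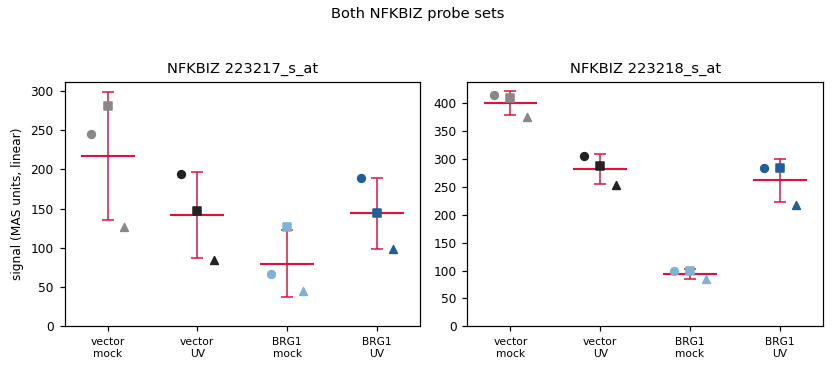
Signal (linear MAS units, axis from 0) of both NFKBIZ probe sets by group. Circles, squares and triangles are the arrays numbered 1, 2 and 3, and red bars give the mean and SD (n = 3). In 223218_s_at mock-treated SW13+BRG1 cells (84.3 to 100) lie below every other array, and in 223217_s_at the groups overlap.

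BCL3, the other nuclear member, can be described only through probe sets shared with MIR8085. With 204908_s_at the signal of BCL3/MIR8085 was 47.2, 46.7 and 61.3 in mock-treated SW13+vector and 127, 123 and 209 in mock-treated SW13+BRG1 cells. After UV it was 34.0, 56.1 and 30.2 in the vector line and 69.4, 71.4 and 87.7 in the BRG1 line. The lines did not overlap in either condition. The difference without UV was called (log2 fold change 1.53, standard error 0.30, adjusted p = 0.00231), and after UV it was 0.97 (adjusted p = 0.0312), just under 2-fold. In SW13+BRG1 cells the change with UV was -0.97 (adjusted p = 0.0463), again under 2-fold, and the interaction of -0.56 did not pass (adjusted p = 1.0).

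The dimmer 204907_s_at had means of 4.82 ± 3.21 and 3.36 ± 1.66 in the vector line, below the array medians, and of 42.3 ± 19.6 and 17.7 ± 14.8 in the BRG1 line. It reached the array median on 4 SW13+BRG1 arrays and on no SW13+vector array, so it passed the filter only where it was high and its call without UV (adjusted p = 0.0445) supports nothing. The call was lost in 12 of 24 alternatives, including every other scaling. Without these shared probe sets 1 rather than 3 was higher with BRG1 in mock-treated cells.

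TNFAIP3, which encodes A20, was measured by 2 probe sets that correlated at r = 0.916 over the 12 arrays. With 202644_s_at the vector line gave 48.8, 44.2 and 49.3 without UV and 12.9, 20.0 and 33.8 after UV. The BRG1 line gave 101, 90.9 and 84.3 without and 80.9, 78.4 and 42.0 with UV. The arrays of SW13+BRG1 cells were above those of SW13+vector cells in both conditions without overlap. Of the UV-treated SW13+vector arrays 1 of 3 reached its array median. After UV the difference was called (log2 fold change 1.64, standard error 0.37, adjusted p = 0.00517), and without UV it was 0.96 (adjusted p = 0.0887). The change with UV was -1.20 with the vector (adjusted p = 0.0585, and 0.0417 with the experiment number as a block, which made it a call) and -0.51 with BRG1 (adjusted p = 0.435), and the interaction of 0.69 did not pass (adjusted p = 1.0).

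With 202643_s_at, the vector line gave 5.65, 6.75 and 9.18 without UV and 1.37, 4.38 and 4.01 after UV, all below the array medians. With BRG1 the signals were 41.1, 29.6 and 36.2 without and 35.8, 46.1 and 21.2 with UV. The lines did not overlap in either condition. The probe set passed the filter only through the 6 SW13+BRG1 arrays, so its calls without UV (adjusted p = 0.0239) and after UV (adjusted p = 0.00169) had to point this way and support nothing. The first of these calls was lost in 6 of 25 alternatives, all of which leave out arrays. They are those without mock-treated SW13+vector array 1 or 2, without any 1 of the mock-treated SW13+BRG1 arrays, or without the arrays numbered 3. No fold change is given against signals this dim.

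The wider pathway was described by 4 lists of genes, each gene by its brightest probe set with a single gene, beside the same counts over all 13834 genes. Over all genes the median log2 fold change was 0 and -0.02 between the lines without and with UV, and 0.03 for UV in either line. The tested probe sets of a gene were not all called alike for CYLD, OTUD7B, TNIP1, BTRC, XIAP, TRAF3, TNFRSF10B, CXCL8 and KLF6. Among 13 tested genes of other inhibitors and modulators, 1 was higher and none lower with BRG1 in mock-treated cells (all genes: 9.05% higher, 5.09% lower) and 2 were higher after UV (all genes: 9.56% higher, 6.61% lower). The deubiquitinase CYLD, which like A20 restrains the IκB kinase, was called in both conditions, with 86.0 ± 16.5 and 55.4 ± 10.8 in SW13+vector and 348 ± 15.8 and 329 ± 21.3 in SW13+BRG1 cells (mock first, log2 fold changes 2.03 and 2.59). TNIP1, an A20-binding protein, was higher with BRG1 after UV (1.04). The list medians were 0.01 and 0.19 between the lines and -0.02 and 0.07 for UV. After UV 2 of the 13 were lower in each line (all genes: 3.93% lower and 0.528% higher in the vector line, 6.27% and 0.535% in the BRG1 line). These were NKIRAS1, a Ras-like protein that binds the cytoplasmic inhibitors, with -1.40 and -1.62, and OTUD7B, a deubiquitinase, with -1.27 and -1.79.

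Of 24 tested kinases and adaptors, 0 were called between the lines without UV by limma (11 at an unadjusted p under 0.05), and SHARPIN, a subunit of the linear ubiquitin ligase, was higher with BRG1 after UV (1.06). After UV 5 of the 24 were lower in each line and none higher. Over all genes 3.93% were lower and 0.528% higher in the vector line, and 6.27% and 0.535% in the BRG1 line. TBK1, an IκB kinase-related kinase, went from 429 ± 37.8 to 189 ± 25.2 in the vector line, and its mean in the BRG1 line was 359 ± 40.6 before and 102 ± 24.1 after UV (log2 fold changes -1.19 and -1.84). BTRC, the ubiquitin ligase subunit that recognizes phosphorylated IκB, changed by -1.01 and -1.66, and the receptor adaptor TRAF5 by -1.38 and -1.34. XIAP (-1.26) and TRAF3 (-1.01) were called lower in SW13+vector cells, and MAP3K14 (-1.42), the kinase of the NFKB2 route, and TRAF6 (-2.30) in SW13+BRG1 cells. The interaction passed for none of the 24 (3 at an unadjusted p under 0.05). The shares of all genes at an unadjusted p were not taken, so nothing is read from such counts. The list medians were 0.38 and 0.31 between the lines and -0.39 for UV in either line. Without the arrays numbered 3 the genes lower in SW13+vector cells numbered 3.

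Of 13 tested receptors and ligands, 2 were higher with BRG1 without UV and 4 after UV, and none was lower. Over all genes 9.05% were higher and 5.09% lower without UV, and 9.56% and 6.61% after UV. TNFRSF1A, the main receptor of tumor necrosis factor, was at 83.8 ± 8.35 and 39.1 ± 18.1 in the vector line and at 488 ± 56.3 and 211 ± 19.3 in the BRG1 line (log2 fold changes 2.54 and 2.56, adjusted p = 6.83e-05 and 5.81e-05). It fell with UV in both lines, by 1.23 and 1.21. TNFRSF10B, a death receptor, was higher with BRG1 after UV (1.01). The other called genes, TNFRSF11A (RANK) without UV and IL1R1 and TLR3 after it, were below the array median on all 6 SW13+vector arrays. They passed the filter only through the BRG1 line, so the filter favoured higher calls with BRG1. These were 1 of the 2 and 2 of the 4, and nothing is read from those counts. TNFRSF11A had means of 13.2 ± 1.89 and 33.0 ± 7.14 in the vector and BRG1 lines without UV. After UV the means were 4.07 ± 2.66 and 29.0 ± 17.7 for IL1R1 and 1.87 ± 0.81 and 24.9 ± 13.5 for TLR3. The list medians were 0.48 and 0.87 between the lines and 0.25 and 0.09 for UV.

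Of 20 tested genes that are known NF-κB targets, 7 were higher with BRG1 without UV (35%) and 9 after UV (45%), and none was lower. Over all genes 9.05% were higher and 5.09% lower without UV, and 9.56% and 6.61% after UV. The chemokine CCL2 was at 2.20 ± 0.80 without and 10.7 ± 4.74 with UV in the vector line, and at 900.0 ± 28.6 and 880.4 ± 44.2 in the BRG1 line. PLAU (the protease urokinase), LIF (a cytokine of the interleukin-6 family), CXCL8 (a neutrophil attractant) and LCN2 (an iron-sequestering protein) were also called in both conditions, and like CCL2 they had vector means below the array medians. PLAU was at 12.8 ± 12.8 and 17.3 ± 11.001 in the vector line and at 511 ± 113 and 347 ± 7.35 in the BRG1 line, mock first. For LIF the vector means were 10.1 ± 5.46 and 18.4 ± 8.54, against 89.7 ± 35.4 and 73.3 ± 10.8. CXCL8 had 7.44 ± 3.00 and 17.4 ± 6.85 in the vector line, and LCN2 had 8.44 ± 3.45 and 2.87 ± 0.64 there and 29.1 ± 7.56 and 44.0 ± 9.52 in the BRG1 line. Without UV 4 of the 7 called genes were below the median on all 3 SW13+vector arrays, and after UV 2 of the 9. CCL2 and LCN2 were so on all 6 arrays of that line. PLAU, LIF and CXCL8 reached the median on 2, 1 and 1 of the SW13+vector arrays, under the 3 arrays that the filter needed. None of these genes would have passed without the SW13+BRG1 arrays, where they were high, so nothing is read from the shares of targets called higher. KLF6, a zinc finger factor bright in both lines, was higher by 2.13 and 1.91, and NINJ1, an adhesion protein, and TNFAIP8 were higher after UV by 1.18 and 1.203. With UV 1 of the 20 was called higher and 2 lower in the vector line (all genes: 0.528% and 3.93%). In the BRG1 line 1 was higher and 3 lower (all genes: 0.535% and 6.27%). CXCL8 rose in SW13+BRG1 cells (38.8 ± 9.51 to 131 ± 50.3, log2 fold change 1.71, adjusted p = 0.0281), and the higher call in the vector line is that of CCL2, whose means there are both below the array medians. KLF6 fell by 1.10 and 1.32 in the vector and BRG1 lines, and TNFAIP8 fell by 1.57 and 1.21. IER3, an early response gene, went from 84.3 ± 10.4 to 128 ± 16.3 in the vector line. In the BRG1 line it was 879.8 ± 109.7 before and 303 ± 27.9 after UV, and it fell by 1.54. Its interaction was -2.14 (adjusted p = 0.00413), of the opposite sign to that of NFKBIZ, and 0.0651% of all genes passed this test. The list medians were 0.78 and 0.94 between the lines and 0.21 and -0.14 for UV. These genes answer to many factors besides NF-κB, and the lists were not tested as sets.

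**Figure D5:**
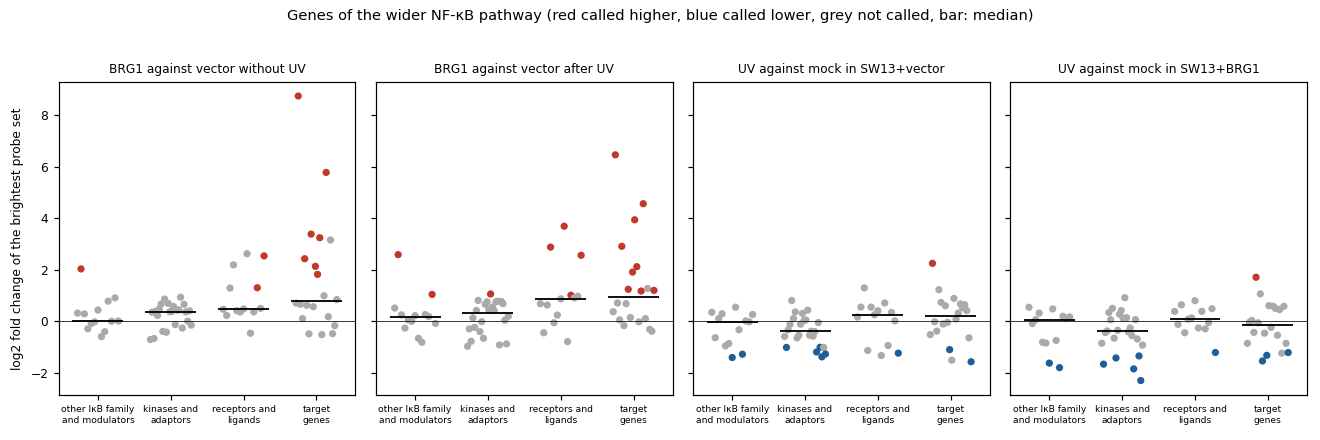
Log2 fold changes of the tested genes of the 4 pathway lists in the 4 comparisons, each gene by its brightest probe set. Red points were called higher, blue lower and grey not called, and black bars are list medians. The called genes between the lines are all higher with BRG1, and most called genes after UV are lower. Of the 20 targets 7 and 9 are called between the lines. Several of these had vector means below the array medians and passed the filter only through SW13+BRG1 arrays.

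The genes whose signal ran most like that of the members with called probe sets were also listed, by the correlation of log2 signals over the 12 arrays, as a description. NFKBIZ was followed most closely by OTOGL (r = 0.961), CALHM5 (0.934) and GPC6 (0.931). CALHM5, a channel protein, had 85.9 ± 8.14 and 72.9 ± 14.8 in SW13+vector and 14.6 ± 3.00 and 37.8 ± 6.51 in SW13+BRG1 cells, mock first, and OTOGL and GPC6 had means of 1.94 to 40.5. For REL 235242_at they were TBC1D14 (0.970), TEAD1 (0.966) and UBN2 (0.966), and for TNFAIP3 202644_s_at ERICH1 (0.968), LRRC8C (0.962) and DENND5B (0.960). TEAD1, the DNA-binding partner of YAP, went from 1252 ± 197 to 856 ± 91.9 in the vector line, and was 973 ± 55.5 before and 561 ± 45.0 after UV in the BRG1 line. For BCL3/MIR8085 they were SH3BP4 (0.965), MTMR4 (0.956) and ZFYVE1 (0.955). Arrays of a group share their line and treatment, so 12 arrays in 4 groups give such correlations little freedom.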

How the data were processed

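RNA of the 12 samples was hybridized to Affymetrix U133 Plus 2.0 arrays. The deposited values are signal intensities on a linear scale, which the authors computed per probe set with MAS at default settings and scaled to a target of 125. Its version was not found in the labels or methods. The authors compared groups by a Welch test. Of the probe sets 41097 are annotated to 1 gene, 1801 to several and 11777 to none, and symbols were updated by gene identifier from a RefSeq table (GRCh38.p14).

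Intensities were taken to log2 with no further scaling. Of 54613 probe sets that are not controls, 32622 with a signal at or above the array median in at least 3 of 12 arrays were tested with limma 3.58.1 (R 4.3.3), as a 4-group model with trend = TRUE in eBayes, so that the prior variance depends on the average log2 signal. P values were adjusted by Benjamini-Hochberg over all of them. The scripts were tested on simulated data. Groups came from the sample labels. With 3 arrays per group, their number limits the precision, and p values measure the spread between these samples.

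The sample titles carry an experiment number, without stating what same-numbered samples share. Deviations of same-numbered arrays from their group means correlated at 0.102 to 0.275 between mock- and UV-treated SW13+vector cells. All 3 pairs were over 0.1, the limit set for pairing, so by this limit alone the numbers paired these groups. The correlations were 0.096 to 0.293 and 0.065 to 0.201 between the lines without and with UV and 0.066 to 0.247 for UV in SW13+BRG1 cells, with 2, 1 and 2 of 3 pairs over 0.1. In each comparison the highest value was that of the arrays numbered 3. Only 4 of 12 arrays correlated best with their own number in every other group, so pairing is not established.

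All members are named, with every probe set of theirs, and from each pathway list up to 6 called genes with the largest change per comparison. The probe sets of BCL3 are shared with MIR8085 and are named outside that rule. For each member with a called probe set the 3 genes of highest correlation are named. The members and lists were chosen with earlier results of these data known. The alternatives were other filters, scalings, an offset of 16, other variance priors, the compared arrays alone, a replicate block, the methods' Welch test, no fold threshold, the brightest probe set per gene, and leaving out arrays. Omitting the arrays numbered 3 and omitting the BCL3 probe sets were chosen after seeing the data. Promoter windows came from a RefSeq table (GRCh38.p14), in which 8 of the 10 genes had an entry.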

Additional observations from a re-analysis of the deposited data

Results flagged for a closer look

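The UV effect on NFKBIZ (223218_s_at) differed between the lines by the test of the interaction. The value is 1.97 on the log2 scale (standard error 0.23, limma adjusted p = 0.00438 over all tested probe sets), with a log2 fold change after UV of 1.46 in SW13+BRG1 and -0.51 in SW13+vector cells. All 3 arrays of UV-treated SW13+BRG1 cells were above all 3 of mock-treated ones, and all 3 of UV-treated SW13+vector cells were below their mock-treated ones. The second probe set of the gene gave 1.54 and did not pass (adjusted p = 0.918).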

How the results depend on the processing

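Of 14 called values of single probe sets, compared under 360 combinations of value and alternative, 324 calls were kept, 36 were lost and 0 reversed. The kept calls include alternatives that could not lose a call, such as no fold threshold or leaving out the BCL3/MIR8085 probe sets. Counts are those of the 19 tested probe sets. In the comparison of the lines without UV, 3 were higher and 2 lower, and the higher count was 1 with the filter on mean log2 signal, 1 with the methods' Welch test after Benjamini-Hochberg adjustment, 0 with 1 probe set per gene and 1 without the BCL3/MIR8085 probe sets. The lower count was 1 with no trend in the variance prior, 1 with either form of the Welch test and 1 with 1 probe set per gene. After UV, 2 were higher and 1 lower, and these were 1 higher with the filter on mean log2 signal, 4 higher and 2 lower with no fold threshold, 1 higher and 0 lower with 1 probe set per gene, 0 lower with the unadjusted Welch test, and 0 and 0 after its adjustment. For UV in SW13+vector cells, 1 was lower, and this was 2 with the filter on mean log2 signal, with an offset of 16, with the compared arrays alone and with the unadjusted Welch test, 3 with hybridization controls, with no fold threshold and without the arrays numbered 3, and 0 with the adjusted Welch test. For UV in SW13+BRG1 cells, 1 was higher and 3 lower, and the lower count was 6 with hybridization controls, 5 with no fold threshold and 1 with 1 probe set per gene, while the adjusted Welch test gave 0 higher and 0 lower. Over all probe sets scaling to hybridization controls moved the median by -0.26 and -0.39 for UV in SW13+vector and SW13+BRG1 cells, by -0.15 between the lines after UV and by -0.13 for the interaction. With it the counts of all probe sets called lower with UV were 2264 and 4330 in these lines, in place of 1175 and 1895. The cause of these changes was not tested.

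When each array was left out in turn, the lines without UV gave 1 to 3 higher and 1 to 2 lower. The higher count was 1 without mock-treated SW13+vector array 1 or any 1 of the mock-treated SW13+BRG1 arrays, and the lower count was 1 without mock-treated SW13+vector array 1 or 2 or mock-treated SW13+BRG1 array 1 or 3. After UV there were 2 to 4 higher (4 without UV-treated SW13+vector array 2) and 1 to 1 lower. UV in SW13+vector cells gave 1 to 3 lower (2 without UV-treated SW13+vector array 3, 3 without UV-treated SW13+BRG1 array 3) and UV in SW13+BRG1 cells 1 higher and 3 to 4 lower. The interaction stayed at 1 higher and 0 lower.

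By a limit of 0.1 on the correlation of same-numbered deviations, the experiment numbers paired mock- and UV-treated SW13+vector arrays, with all 3 pairs over 0.1. In the other comparisons 1 or 2 of 3 were. With the number as a replicate block, UV in SW13+vector cells left 3 member probe sets lower rather than 1, and no other member count changed. Of all tested probe sets 1557 rather than 1175 were lower there with the block. Over all probe sets the interaction then passed for 16 as positive and 53 as negative, in place of 4 and 12. Only 4 of 12 arrays correlated best with their own number in every other group.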
